A study of Mus musculus with 9 samples.

Results

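The response to low oxygen and glycolysis were followed through 10 genes in the terminal colon of mouse embryos: Egln3, Aldoa, Aldoc, Pgk1, Ldha, Slc2a1, Bnip3, Vegfa, Pdk1 and Car9. The members were chosen by gene symbol, as every probe set (a group of short probes that together measure a transcript) naming only 1 of these genes. This gave 24 of the 45101 probe sets on the array: 5 for Aldoa, 4 for Pdk1, 3 each for Pgk1 and Slc2a1, 2 each for Egln3, Aldoc and Vegfa, and 1 each for Ldha, Bnip3 and Car9. The study hybridised total RNA from 9 samples to 9 Affymetrix mouse arrays, at embryonic day 14 in the labels and day 14.5 in the series text. Wild type (arrays 1B, 1C and 1D), Ednrb null (genotype Ednrb -/-, carrying EdnrB(lacZ/lacZ); arrays 29, 37 and 41) and Ednrb NCC null (Ednrb-FLEX(NCC-/-), described as mutant in NCC cells; arrays 2, 5 and 6) had 3 arrays each. Ednrb encodes the endothelin receptor that neural crest cells, the precursors of the enteric nervous system, need to colonise the distal gut. The sources used here give neither the Cre line behind the NCC genotype nor the strain, nor whether a sample is 1 embryo or a pool, so p-values measure the spread between these samples, which may be technical in part.

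Cells sense oxygen through prolyl hydroxylases, of which Egln3 is 1, that mark the alpha subunits of hypoxia-inducible factor (HIF) for destruction while oxygen is plentiful. When oxygen falls, HIF builds up and raises genes that move metabolism from the mitochondrion to glycolysis: a glucose transporter (Slc2a1), glycolytic enzymes (Aldoa, Aldoc, Pgk1), lactate dehydrogenase (Ldha) and a kinase that shuts pyruvate out of the citrate cycle (Pdk1). It also raises a mitophagy receptor (Bnip3), the main growth factor of blood vessels (Vegfa), a carbonic anhydrase of the cell surface (Car9) and Egln3 itself, which limits the response.

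HIF binds DNA at a short core, and the promoters of the members were searched for it because the members are best known as its targets. The motifs were ACGTG and GCGTG on either strand, in the first 250 bases before each start in the RefSeq promoter table (GRCm38.p6). A palindromic CACGTG counts as 2 overlapping matches. All 10 genes were matched by symbol, with 16 promoters, of which 13 held at least 1 match and 5 held 2 or more. A pair of Aldoa promoters overlap and share the same match, so the promoters are not all separate. A promoter each of Aldoa, Vegfa and Pdk1 held none. In the whole table of 32851 promoters, 38.6% held a match and 16.7% held 2 or more. Stretches of 6 members are shown, from genes whose levels are compared below, with matches in capitals and each written 5′ to 3′ on the gene's own strand.
Egln3, chr12:54204084-54204118, minus strand: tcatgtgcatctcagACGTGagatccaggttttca
Pdk1, chr2:71873131-71873165, plus strand: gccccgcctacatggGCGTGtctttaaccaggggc
Pgk1, chrX:106186935-106186988, plus strand: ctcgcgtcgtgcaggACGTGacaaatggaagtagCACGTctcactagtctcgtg
Ldha, chr7:46845644-46845763, plus strand: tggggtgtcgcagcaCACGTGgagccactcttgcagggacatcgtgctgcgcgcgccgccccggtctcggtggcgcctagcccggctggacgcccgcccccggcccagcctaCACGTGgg
Slc2a1, chr4:119108669-119108728, plus strand: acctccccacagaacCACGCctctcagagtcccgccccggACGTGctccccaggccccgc
Bnip3, chr7:138909522-138909638, minus strand: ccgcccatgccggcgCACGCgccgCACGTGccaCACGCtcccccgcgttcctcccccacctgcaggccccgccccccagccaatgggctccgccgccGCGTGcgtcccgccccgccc
Egln3 and Pdk1 held 1 match each in the promoters shown, Pgk1 and Slc2a1 2 each, and Ldha and Bnip3 5 each, the fifth of Ldha lying beyond its stretch. A match describes the letters only.

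The targeted gene was measured first. Ednrb (probe set 1437347_at) had a log2 intensity of 11.02 ± 0.07 (SD, n = 3) in wild type and 9.13 ± 0.33 in Ednrb null. In Ednrb NCC null it was 11.17 ± 0.14. It fell by 1.89 on the log2 scale in Ednrb null (limma adjusted p 2.88e-05), and the NCC null difference was 0.15 (limma adjusted p 0.696), so whole-tissue Ednrb checks the label of the first mutant only. Markers of the tissue were present on every array: Hoxd13, of the hindgut, at 11.90 to 12.46, Epcam, of epithelium, at 12.40 to 13.05, and Acta2, of smooth muscle, at 14.14 to 14.57. Hoxa13 (5.88 to 6.84) and Cdx2 (6.35 to 7.35) were dimmer. Median intensity per array was 112 to 116. The log2 ratio of the 3' to the 5' control probe sets of Actb, a measure of RNA integrity, was 1.18 ± 0.13 in wild type, 1.21 ± 0.18 in Ednrb NCC null and 0.87 ± 0.06 in Ednrb null (SD, n = 3). The Ednrb null arrays, at 0.8 to 0.9, did not overlap the others, at 1.03 to 1.4. Adjusting for this ratio thus cannot separate RNA integrity from the Ednrb null genotype. An Ednrb null call lost on adjusting, here and below, assigns the difference to neither. On wild-type array 1C, Xist, the RNA of the inactive X chromosome, was at 6.70 and elsewhere at 11.60 to 14.07.

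Across the 10 genes, Egln3 rose in Ednrb NCC null, and no other gene passed the test by its brightest probe set in either mutant. Probe sets were tested with limma over all 45037 that are not array controls, and a call means an adjusted p under 0.05. Against wild type, Ednrb NCC null had 2 of 24 member probe sets higher (1 of Egln3, 1 of Pdk1) and 0 lower, where 3.58% of all probe sets were called (2.06% higher, 1.51% lower). Ednrb null had 0 higher and 1 lower (a dim one of Pdk1), where 5.03% were called (2.51% higher, 2.52% lower), and 8 member probe sets had an unadjusted p under 0.05 in each of these comparisons. Ednrb null against Ednrb NCC null had 0 higher and 2 lower, where 4.41% were called (1.84% higher, 2.57% lower), with 5 at an unadjusted p under 0.05. The counts of called probe sets, being this small, stand near those background shares. No share of all probe sets or genes at an unadjusted p under 0.05 was computed. Counts at that threshold, here and below, thus have no background beside them.

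The differences nevertheless leaned upward in both mutants. In Ednrb null, 10 of 10 genes had a positive log2 difference on their brightest probe set, with a median of 0.18 against 0.04 over all 18193 genes, whose quartiles were -0.07 and 0.14. In Ednrb NCC null, 9 of 10 were positive, with a median of 0.18 against 0.02 over all genes. Both mutants were set against the same 3 wild-type arrays, so these are not separate observations, and array 1C decided much of each median. Without it the medians were 0.11 and 0.07.

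**Figure D1:**
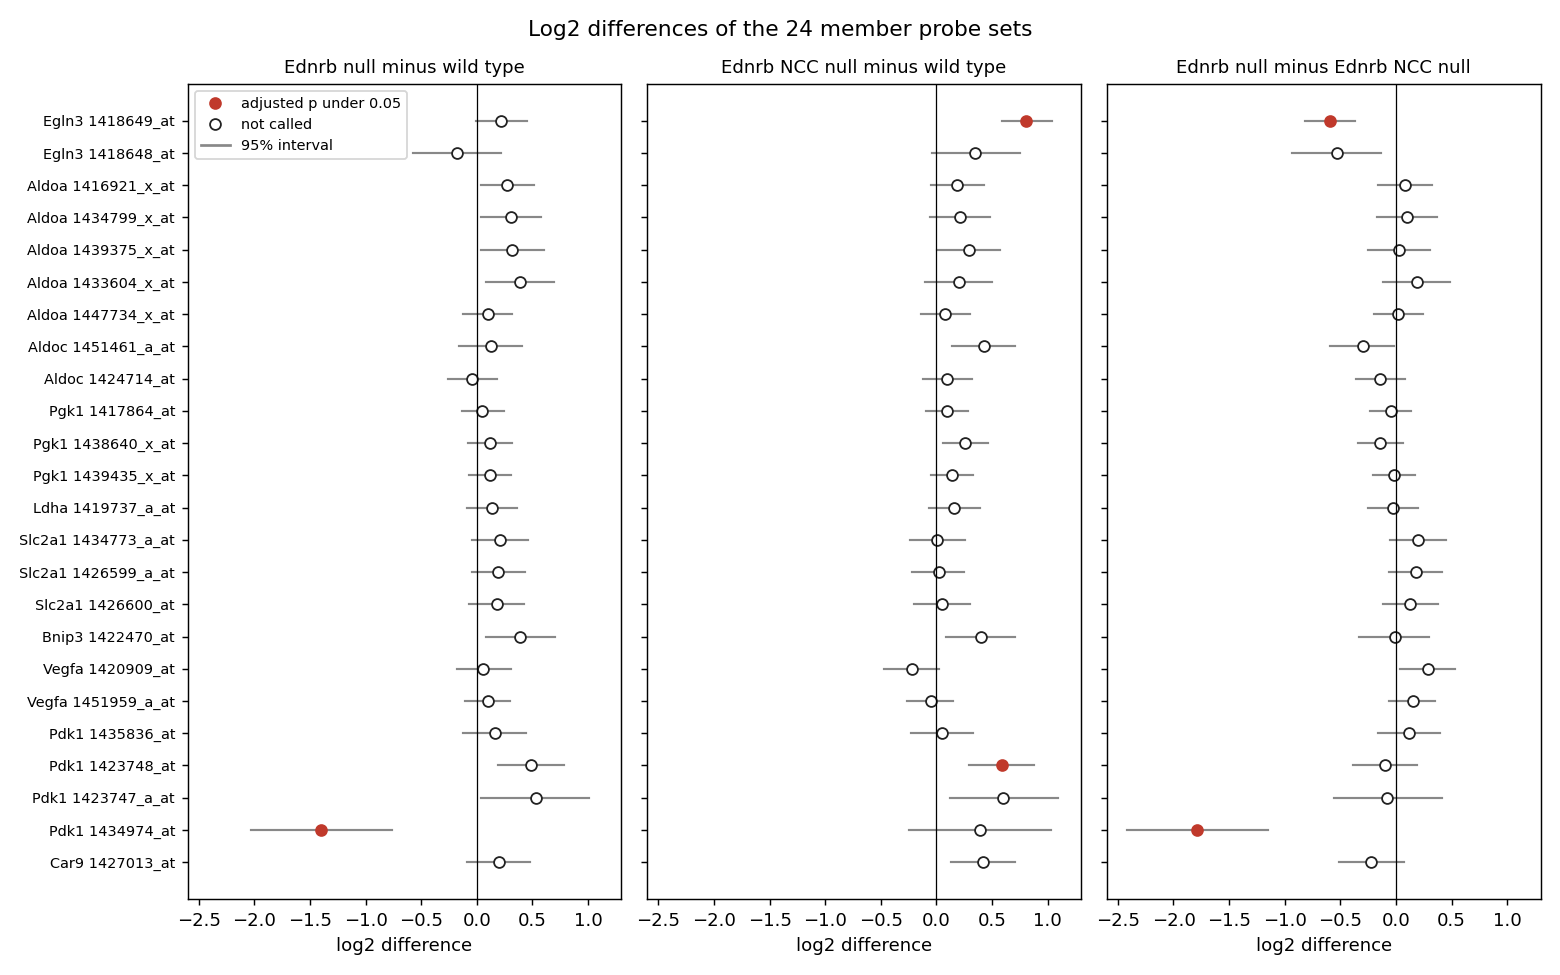
Log2 difference of every member probe set in 3 comparisons (horizontal axis, log2 scale), with 95% intervals from the limma fit (n = 3 arrays a group) and filled red points for adjusted p under 0.05. Most points lie to the right of 0 against wild type, while most intervals cross 0. The filled points are Egln3 1418649_at, Pdk1 1423748_at and Pdk1 1434974_at.

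Egln3, the prolyl hydroxylase, was the member with the clearest difference. On probe set 1418649_at the log2 intensity was 9.53, 9.79 and 9.71 in wild type 1B, 1C and 1D, 10, 9.94 and 9.75 in Ednrb null 29, 37 and 41, and 10.51, 10.39 and 10.57 in Ednrb NCC null 2, 5 and 6. The 3 NCC null arrays stood above all 6 others, and the Ednrb null and wild-type ranges overlapped. Egln3 rose by 0.81 in Ednrb NCC null (SE 0.10, 95% interval 0.59 to 1.04, 1.76-fold, limma adjusted p 0.00178). Its level was lower in Ednrb null than in Ednrb NCC null, with a difference of -0.59 (interval -0.82 to -0.37, limma adjusted p 0.00883) that was no longer called on adjusting for the Actb ratio (-0.65, limma adjusted p 0.163). In Ednrb null against wild type the difference was 0.22 (interval -0.01 to 0.45, limma adjusted p 0.305).

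The other Egln3 probe set, 1418648_at, gave less. It read 9.55, 9.60 and 9.44 in wild type, 9.60, 9.34 and 9.10 in Ednrb null, and 10.32, 9.55 and 9.77 in Ednrb NCC null, so the groups overlapped and NCC null array 2 was highest. The NCC null difference was 0.35 (interval -0.04 to 0.75, limma adjusted p 0.366), and that between the mutants was -0.53 (interval -0.93 to -0.13, limma adjusted p 0.146). Both probe sets placed Egln3 highest in Ednrb NCC null, and 1 of 2 passed the test.

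Several lists of tissue markers were, like Egln3, highest in Ednrb NCC null, though the order of the other groups varied. The 14 markers of gut epithelium had a mean log2 level of 11.06 to 11.36 on the NCC null arrays, 10.71 to 10.80 in wild type and 10.24 to 10.66 in Ednrb null. Against wild type 14 of 14 had a positive difference in Ednrb NCC null. Of these 3 were called (Vil1, Krt8 and Lgals4), where 2.92% of all genes were called higher. In Ednrb null 2 of the 14 had a positive difference from wild type. There 2 were called lower, where 2.29% of all genes were. Between the mutants 9 of 14 were called lower in Ednrb null, where 3.73% of all genes were. The 10 markers of visceral smooth muscle (11.44 to 11.74 in NCC null, 11.19 to 11.38 in wild type, 11 to 11.29 in Ednrb null) and the 10 of mesothelium (8.81 to 8.97, 7.27 to 8.49 and 8.55 to 8.65 in the same order) also had their highest means there, although 0 and 1 of them were called against wild type and 2 and 1 between the mutants. The 14 macrophage markers also had their highest means in Ednrb NCC null (8.47 to 8.54, beside 7.87 to 8.46 in wild type and 7.88 to 8.27 in Ednrb null). Against wild type 13 of 14 were positive there and 2 were called (Mrc1 and Pf4). Between the mutants 11 of the 14 were wholly lower in Ednrb null, and 2 were called. The share of all genes wholly lower in that comparison was not computed. By contrast the mean of the 9 measured markers of enteric neural crest was lower in both mutants (7.66 to 7.77 in NCC null, 7.17 to 7.51 in Ednrb null, 8.51 to 9.08 in wild type). Against wild type, 8 of the 9 were called lower in Ednrb null, where 2.29% of all genes were. Ednrb itself is on this list and among the 8, and that fall was fixed by the genotype. In Ednrb NCC null 4 were called lower, where 0.984% of all genes were, and 2 had a positive difference. Ednrb was not among these 4. The part of these lists in the Egln3 difference was not tested. In whole tissue, more cells of a type and more RNA per cell cannot be told apart.

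**Figure D2:**
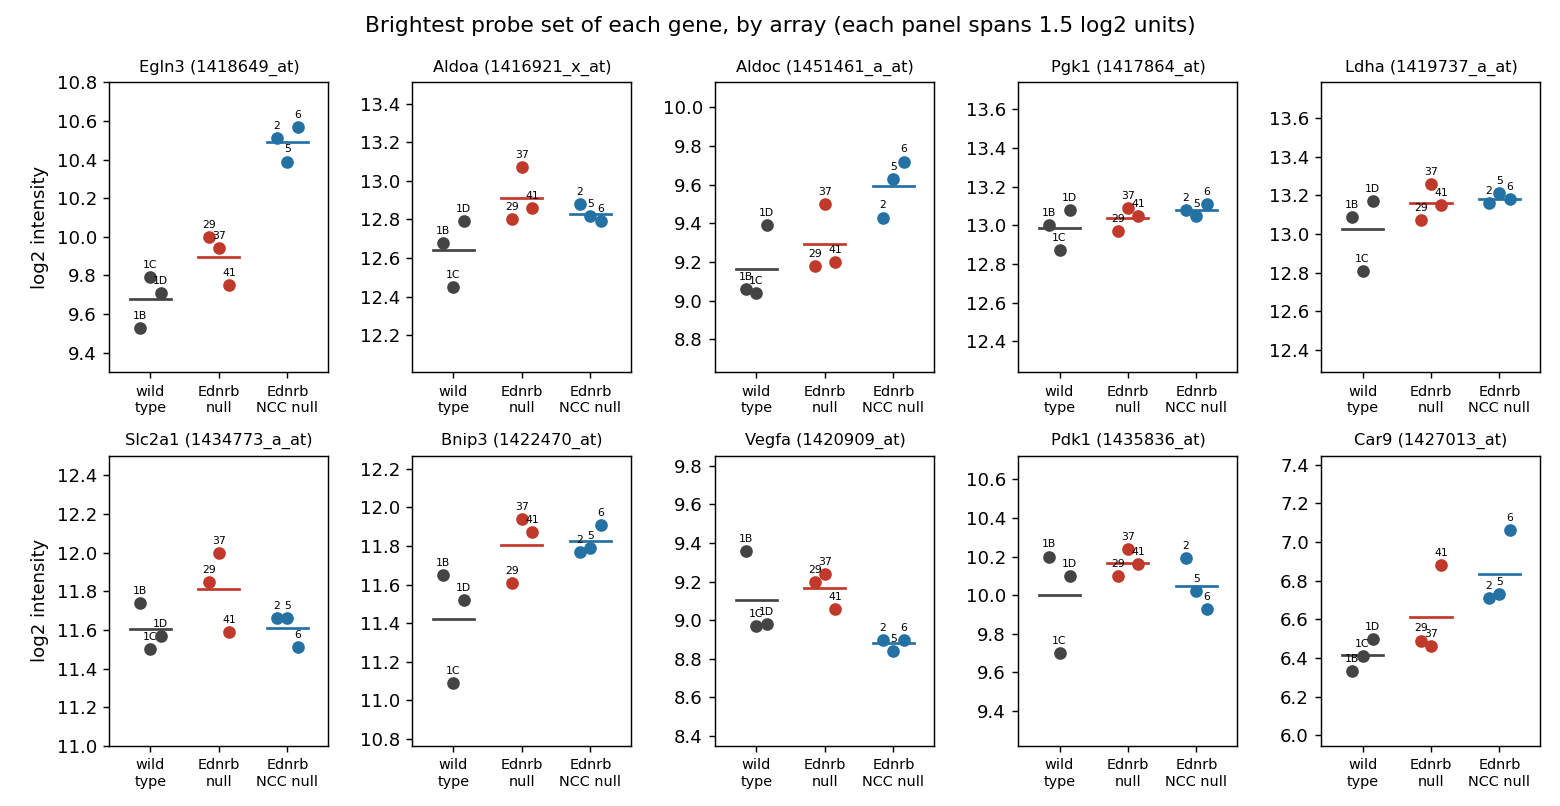
Log2 intensity of the brightest probe set of each member gene on the 9 arrays (vertical axis), by group, with a bar at the group mean (n = 3). For Egln3 the 3 Ednrb NCC null points, at 10.39 to 10.57, lie above the other 6. Wild-type array 1C is the lowest point for Bnip3 (11.09) and Ldha (12.81).

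None of the glycolytic enzymes among the members passed the test, and their differences ranged from small (Pgk1) to moderate (Aldoc). Aldolase A (Aldoa, 1416921_x_at), which splits fructose bisphosphate in muscle and most tissues, read 12.68, 12.45 and 12.79 in wild type, 12.80, 13.07 and 12.86 in Ednrb null, and 12.88, 12.82 and 12.79 in Ednrb NCC null. Each Ednrb null array was above each wild-type array, if by little (12.80 against 12.79). The difference was 0.27 (interval 0.04 to 0.51, limma adjusted p 0.212) in Ednrb null and 0.19 (interval -0.05 to 0.43, limma adjusted p 0.423) in Ednrb NCC null. The other 4 Aldoa probe sets ranged from 0.10 to 0.39 and from 0.08 to 0.29 in the same comparisons, all positive and none called, and in Ednrb null 4 of the 5 intervals lay above 0. All 5 carry the suffix x_at, Affymetrix's mark for probes that may bind other sequences, so they are uncertain as a measure of Aldoa alone.

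Aldolase C (Aldoc, 1451461_a_at), the form best known from the nervous system, read 9.06, 9.04 and 9.39 in wild type, 9.18, 9.50 and 9.20 in Ednrb null, and 9.43, 9.63 and 9.72 in Ednrb NCC null. The NCC null arrays were all above the wild-type ones. The difference there was 0.43 (interval 0.14 to 0.71, limma adjusted p 0.104), which did not pass the test, and in Ednrb null it was 0.13 (interval -0.16 to 0.41, limma adjusted p 0.686). The second Aldoc probe set was dim, at 4.47 to 4.78 on the 9 arrays, and carried no call.

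Phosphoglycerate kinase (Pgk1, 1417864_at), which makes the first ATP of glycolysis, read 13.00, 12.87 and 13.08 in wild type, 12.97, 13.09 and 13.05 in Ednrb null, and 13.08, 13.05 and 13.11 in Ednrb NCC null. The groups overlapped throughout. Its differences were 0.05 (interval -0.13 to 0.24, limma adjusted p 0.814) and 0.10 (interval -0.09 to 0.28, limma adjusted p 0.639). Rises beyond 0.28 lie outside both intervals of this probe set. A second, x_at probe set (1438640_x_at) separated Ednrb NCC null from wild type by 0.26 (interval 0.06 to 0.46) without passing the test (limma adjusted p 0.162). The third, 1439435_x_at, also separated them, by 0.14, without passing it (limma adjusted p 0.457).

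Lactate dehydrogenase A (Ldha, 1419737_a_at), which turns pyruvate into lactate, read 13.09, 12.81 and 13.17 in wild type, 13.07, 13.26 and 13.15 in Ednrb null, and 13.16, 13.21 and 13.18 in Ednrb NCC null. Only wild-type 1C stood apart, on the low side. The differences were 0.14 (interval -0.09 to 0.36, limma adjusted p 0.567) and 0.16 (interval -0.07 to 0.39, limma adjusted p 0.494). Without array 1C they were 0.03 and 0.05, so little of the Ldha difference remained.

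The glucose transporter Slc2a1 (GLUT1, 1434773_a_at) read 11.74, 11.50 and 11.57 in wild type, 11.85, 12 and 11.59 in Ednrb null, and 11.66, 11.66 and 11.51 in Ednrb NCC null. Ednrb null arrays 29 and 37 were the highest, and array 41 lay within wild type. The difference was 0.21 (interval -0.04 to 0.46, limma adjusted p 0.381) in Ednrb null and 0.01 (interval -0.24 to 0.26, limma adjusted p 0.974) in Ednrb NCC null, where its sign turned with quantile normalization. The other pair of Slc2a1 probe sets gave 0.19 and 0.18 in Ednrb null, and 0.02 and 0.05 in Ednrb NCC null. All 3 Slc2a1 probe sets thus had their larger difference in Ednrb null, and none passed the test against the other mutant, where the brightest gave 0.20 (interval -0.05 to 0.45, limma adjusted p 0.426).

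The 4 probe sets of Pdk1, the kinase that inactivates pyruvate dehydrogenase, did not tell 1 story. The brightest, 1435836_at, read 10.20, 9.70 and 10.10 in wild type, 10.10, 10.24 and 10.16 in Ednrb null, and 10.19, 10.02 and 9.93 in Ednrb NCC null, with overlapping groups and differences of 0.16 (interval -0.12 to 0.44, limma adjusted p 0.576) and 0.05 (interval -0.23 to 0.33, limma adjusted p 0.906). On 1423748_at the values were 9.65, 9.34 and 9.83 in wild type, 9.96, 10.13 and 10.19 in Ednrb null, and 10.09, 10.10 and 10.38 in Ednrb NCC null. Both mutants lay wholly above wild type here. This probe set rose by 0.59 in Ednrb NCC null (SE 0.13, interval 0.29 to 0.88, 1.5-fold, limma adjusted p 0.0374), and its difference in Ednrb null was 0.49 (interval 0.19 to 0.78, limma adjusted p 0.0677). The NCC null call was fragile: it was lost without any 1 array other than Ednrb null 41 or wild type 1D, with adjusted p from 0.051 (without Ednrb null 29) to 0.143 (without Ednrb NCC null 6), and on adjusting for the Actb ratio (adjusted p 0.0532).

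The third Pdk1 probe set, 1423747_a_at, read 9.57, 9.05 and 8.60 in wild type, 9.71, 9.79 and 9.31 in Ednrb null, and 9.65, 9.92 and 9.46 in Ednrb NCC null. Wild type spanned almost 1 log2 unit on it, and the differences of 0.53 and 0.60 did not pass the test (limma adjusted p 0.241 and 0.181). The dimmest, 1434974_at, read 5.73, 5.34 and 5.34 in wild type, 4.22, 3.43 and 4.57 in Ednrb null, and 5.32, 5.96 and 6.30 in Ednrb NCC null. It went the opposite way, with Ednrb null below every other array. It fell by 1.40 in Ednrb null against wild type (interval -2.03 to -0.76, limma adjusted p 0.018), a call lost without Ednrb null 37 (-1.08, adjusted p 0.0535) or wild type 1B (-1.27, adjusted p 0.0847), or on adjusting for the Actb ratio (-1.39, adjusted p 0.302). Its mean level lay at the 24.5th percentile of all probe sets, so it gives the least reliable of the 4 readings.

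Bnip3 (1422470_at), the mitophagy receptor, read 11.65, 11.09 and 11.52 in wild type, 11.61, 11.94 and 11.87 in Ednrb null, and 11.77, 11.79 and 11.91 in Ednrb NCC null. The NCC null arrays were all above wild type, while Ednrb null array 29 lay within it. The differences were 0.39 (SE 0.14, interval 0.08 to 0.70, limma adjusted p 0.173) and 0.40 (interval 0.09 to 0.71, limma adjusted p 0.165), neither called. Without wild type 1C they were 0.22 and 0.24.

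Vegfa, which draws blood vessels into growing tissue, was the member with a negative difference in Ednrb NCC null. Its brighter probe set, 1420909_at, read 9.36, 8.97 and 8.98 in wild type, 9.20, 9.24 and 9.06 in Ednrb null, and 8.90, 8.84 and 8.90 in Ednrb NCC null. The 3 NCC null arrays lay just below the lowest of the other 6. The difference from wild type was -0.22 (interval -0.47 to 0.02, limma adjusted p 0.353), and Ednrb null against Ednrb NCC null was 0.29 (interval 0.04 to 0.53, limma adjusted p 0.206), neither called. The dimmer 1451959_a_at gave -0.05 and 0.15.

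Car9 (1427013_at), a surface enzyme that handles the acid made by glycolysis, was dim at 6.33, 6.41 and 6.50 in wild type, 6.49, 6.46 and 6.88 in Ednrb null, and 6.71, 6.73 and 7.06 in Ednrb NCC null. As for Egln3, Aldoc and Bnip3, all NCC null arrays were above all wild-type arrays. The difference was 0.42 (SE 0.13, interval 0.13 to 0.71, limma adjusted p 0.118) in Ednrb NCC null and 0.20 (interval -0.09 to 0.48, limma adjusted p 0.502) in Ednrb null. In Ednrb NCC null, 4 of 10 member genes were thus wholly above wild type and 1 (Vegfa) wholly below, where 15.6% and 6.30% of all genes were. In Ednrb null it was 1 above (Aldoa) and 0 below, against 14.4% and 8.19%.

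Much of the spread among the members lay between arrays of a group. Wild-type 1C was the lowest array for 7 of 10 genes and for 15 of 24 probe sets, where it was lowest for 11.6% of all probe sets. All 10 genes were below their own mean on it, with a median deviation of -0.27 on the log2 scale, against -0.04 to 0.16 on the other 8 arrays. Ednrb null 37 was highest for 5 of 10 genes and 11 of 24 probe sets, where it was highest for 12.9% of all. On array 1C the Actb ratio, at 1.08, lay within the range of the other arrays. The mean of the macrophage markers (7.87) and that of the hindgut position markers (8) were the lowest of the 9 arrays, that of the skeletal muscle markers (5.85) was level with Ednrb null 29 at the low end, and Xist, as above, was low on 1C alone. The part of these in the low values was not tested.

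**Figure D3:**
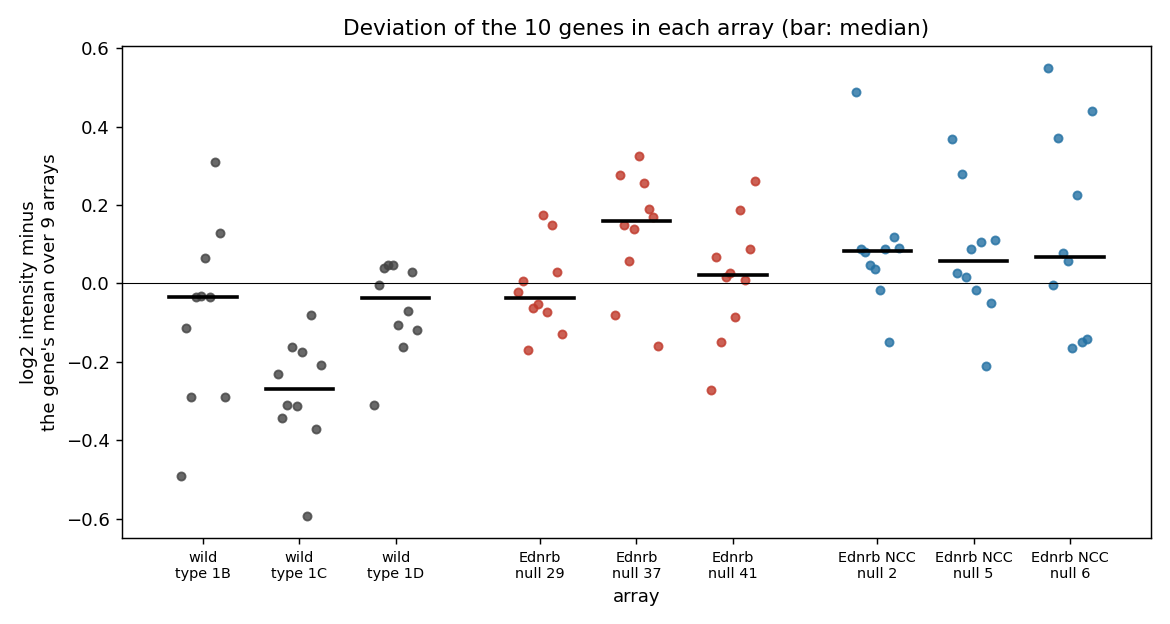
Deviation of each member gene's brightest probe set from its own mean over the 9 arrays (vertical axis, log2 units), by array, with a bar at the median of the 10 genes. Wild-type 1C is the low array, with a median of -0.27, and Ednrb null 37 the high one, at 0.16.

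Of the machinery that acts on HIF, 17 of 17 listed genes were measured and limma called 0 in either mutant against wild type. Among all genes, 2.51% were called higher and 2.29% lower in Ednrb null, against 2.92% and 0.984% in the NCC mutant. At an unadjusted p under 0.05 the machinery had 2 genes in the first mutant and 4 in the second, and its median differences were 0.02 and 0.00. Hif1a, the oxygen-regulated subunit, differed by 0.02 and -0.13, Egln1, the main hydroxylase of HIF, by -0.07 and 0.00, and Egln2 by 0.09 and 0.02. Egln3 passed the test in Ednrb NCC null where these paralogs did not, although the contrast between paralogs was not tested. Between the mutants, where 1.56% of all genes were called higher and 3.73% lower, 1 of 17 was called: Hif3a, a HIF alpha subunit that can restrain the others, was lower in Ednrb null, by -0.47 (limma adjusted p 0.0191). It read 11.35, 11.26 and 11.43 in wild type, 11.17, 11.08 and 11.14 in Ednrb null, and 11.60, 11.45 and 11.75 in Ednrb NCC null. The Hif3a call was lost without any Ednrb null array or NCC null 6 (adjusted p 0.0568 to 0.0811), and on adjusting for the Actb ratio (0.456). It was also lost with the mean of its probe sets (-0.22, limma adjusted p 0.125). The other Hif3a probe sets, all dimmer and none called, gave -0.45 (1446708_at) to 0.16 (1425429_s_at) between the mutants.

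Among the other HIF targets, 29 of 32 were measured. Of all genes, 2.51% were called higher and 2.29% lower in Ednrb null, and 2.92% and 0.984% in Ednrb NCC null. In Ednrb null 1 rose (Bhlhe40, a transcriptional repressor, by 0.42) and 2 fell (Cxcr4, a chemokine receptor, by 0.56, and Lox, which crosslinks collagen, by 1.02), with a median of 0.05. In Ednrb NCC null 2 rose (Bhlhe40, by 0.49, and Tfrc, which takes up iron, by 0.57) and 0 fell, with a median of -0.01. At an unadjusted p under 0.05 there were 8 of 29 in Ednrb NCC null, and 9 of 29 were wholly above wild type and 0 below, where 15.6% and 6.30% of all genes were. In Ednrb null it was 3 above and 2 below, against 14.4% and 8.19% of all genes. All of the named calls were lost when some single arrays were left out: Bhlhe40 in Ednrb null without any but NCC null 2 or 6 (adjusted p up to 0.135), Lox without any but wild type 1C (up to 0.176), and Cxcr4 without wild type 1B (0.0501) or 1D (0.0533). On adjusting for the Actb ratio the Ednrb null calls of Bhlhe40 (limma adjusted p 0.596), Lox (0.613) and Cxcr4 (0.376) were lost as well. Bhlhe40 in Ednrb NCC null was lost without NCC null 5 or 6 or wild type 1B or 1C (up to 0.0901). Tfrc was lost without any NCC null array or wild type 1B or 1C (up to 0.111).

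Between the mutants 0 of the 29 other targets were called higher and 2 lower in Ednrb null, Ndrg1 and Cxcr4. Of all genes, 1.56% were called higher and 3.73% lower there. Ndrg1 (1420760_s_at), a stress-responsive gene of epithelia, read 10.55, 10.30 and 10.94 in wild type, 10.26, 10.65 and 10.07 in Ednrb null, and 11.15, 11.33 and 11.46 in Ednrb NCC null. Like Egln3, it was highest on the 3 NCC null arrays. Its difference between the mutants was -0.99 (limma adjusted p 0.0106), a call lost without Ednrb null 29 (0.0507) or NCC null 6 (0.0534) and on adjusting for the Actb ratio (0.134). Against wild type its difference in Ednrb NCC null was 0.72 (limma adjusted p 0.0521), just short of a call, and 2 of its other 4 probe sets were called higher, 1456174_x_at by 0.77 (limma adjusted p 0.0373) and 1450976_at by 0.79 (limma adjusted p 0.034). The Cxcr4 call between the mutants was lost without any 1 array except wild type 1C or 1D (adjusted p 0.0538 to 0.105). It was also lost on adjusting for the Actb ratio (limma adjusted p 0.467).

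The other glycolytic enzymes had 2 of 19 measured members higher in Ednrb null (Pkm and Pgam2), where 2.51% of all genes were. In Ednrb NCC null 0 were called, where 2.92% of all genes were called higher and 0.984% lower. There 2 had an unadjusted p under 0.05. The medians of the list were 0.09 and 0.02. Pkm, pyruvate kinase, rose by 0.35 (limma adjusted p 0.0428), a call lost without any 1 array except wild type 1D (adjusted p 0.058 to 0.161). Pgam2, the muscle form of phosphoglycerate mutase, rose by 0.57 (limma adjusted p 0.0278), a call lost without any Ednrb null array or wild type 1B or 1C (adjusted p 0.0564 to 0.114). On adjusting for the Actb ratio the calls of Pkm (0.28, limma adjusted p 0.583) and Pgam2 (0.70, limma adjusted p 0.202) were also lost.

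Pyruvate dehydrogenase and the citrate cycle, the route that Pdk1 closes, had 0 of 24 measured genes called by limma in any comparison. At an unadjusted p under 0.05 the NCC mutant had 11 and Ednrb null 5. The differences were positive for 21 of 24 genes in each mutant, with medians of 0.13 and 0.16 beside 0.04 and 0.02 over all genes. Wholly above wild type were 5 of 24 in Ednrb null, where 14.4% of all genes were, and 10 of 24 in Ednrb NCC null, where 15.6% were.

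Among the transporters of glucose and lactate, 2 of 13 rose in Ednrb null, where 2.51% of all genes were called higher. In Ednrb NCC null 1 of 13 fell, where 0.984% of all genes were called lower. The medians were 0.26 and -0.02. Slc2a12 (GLUT12, 1435911_s_at) read 5.92, 5.60 and 5.60 in wild type, 6.95, 7.19 and 6.98 in Ednrb null, and 5.83, 5.83 and 5.71 in Ednrb NCC null. It rose by 1.34 in Ednrb null against wild type (SE 0.11, interval 1.10 to 1.58) and stood 1.25 above Ednrb NCC null (limma adjusted p 0.000177). Slc2a3 (GLUT3, 1437052_s_at), the high-affinity transporter of neurons, read 11.03, 11.35 and 11.14 in wild type, 11.91, 11.76 and 11.96 in Ednrb null, and 11.24, 10.88 and 11.10 in Ednrb NCC null. It rose by 0.70 in Ednrb null (SE 0.12, limma adjusted p 0.00545), a call lost on adjusting for the Actb ratio (0.83, adjusted p 0.077). On these probe sets both were wholly above the other groups in Ednrb null, whereas the ranges of Slc2a1 1434773_a_at overlapped. On Slc2a1 1426599_a_at Ednrb null (11.60 to 11.89) was wholly above Ednrb NCC null (11.52 to 11.57) but overlapped wild type. The dimmer Slc2a12 probe set, 1455501_at, rose by 0.58 in Ednrb null (limma adjusted p 0.0251). Slc2a10 fell by 0.72 in Ednrb NCC null (limma adjusted p 0.0344), a call lost without Ednrb null 41, any NCC null array, or wild type 1B or 1D (adjusted p 0.0519 to 0.132).

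VEGF ligands and receptors had 1 of 9 higher in Ednrb null (Vegfc, the lymphatic growth factor, by 0.69), where 2.51% of all genes were. In Ednrb NCC null 0 of 9 were called and 2 had an unadjusted p under 0.05. The medians were 0.00 and -0.16. The Vegfc call was lost without Ednrb null 29 or 37 or wild type 1B or 1D (adjusted p 0.0565 to 0.0738). It was also lost on adjusting for the Actb ratio (0.83, limma adjusted p 0.148) and with the mean of its probe sets (0.38, limma adjusted p 0.157). In Ednrb null its probe set 1419417_at rose by 0.60 (limma adjusted p 0.0157), while 1439766_x_at gave -0.16 (limma adjusted p 0.758). Carbonic anhydrases other than Car9 had 2 of 15 higher (Car14, by 0.63, and Car11, by 0.72) and 2 lower in Ednrb null (Car8, by 1.17, and Car3, by 0.76). In Ednrb NCC null 1 was higher (Car13, by 0.69, limma adjusted p 0.00672) and 0 were lower. The Car3 call was lost without any 1 array but Ednrb null 37 or wild type 1C (adjusted p up to 0.18), and on adjusting for the Actb ratio the calls of Car14 (adjusted p 0.066), Car8 (0.102) and Car11 (0.388) were lost as well. The other Car3 probe sets, all dimmer, gave -0.02, 0.04 and 0.02 in Ednrb null. The medians of the family were -0.03 and 0.03, beside 0.04 and 0.02 over all genes.

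**Figure D4:**
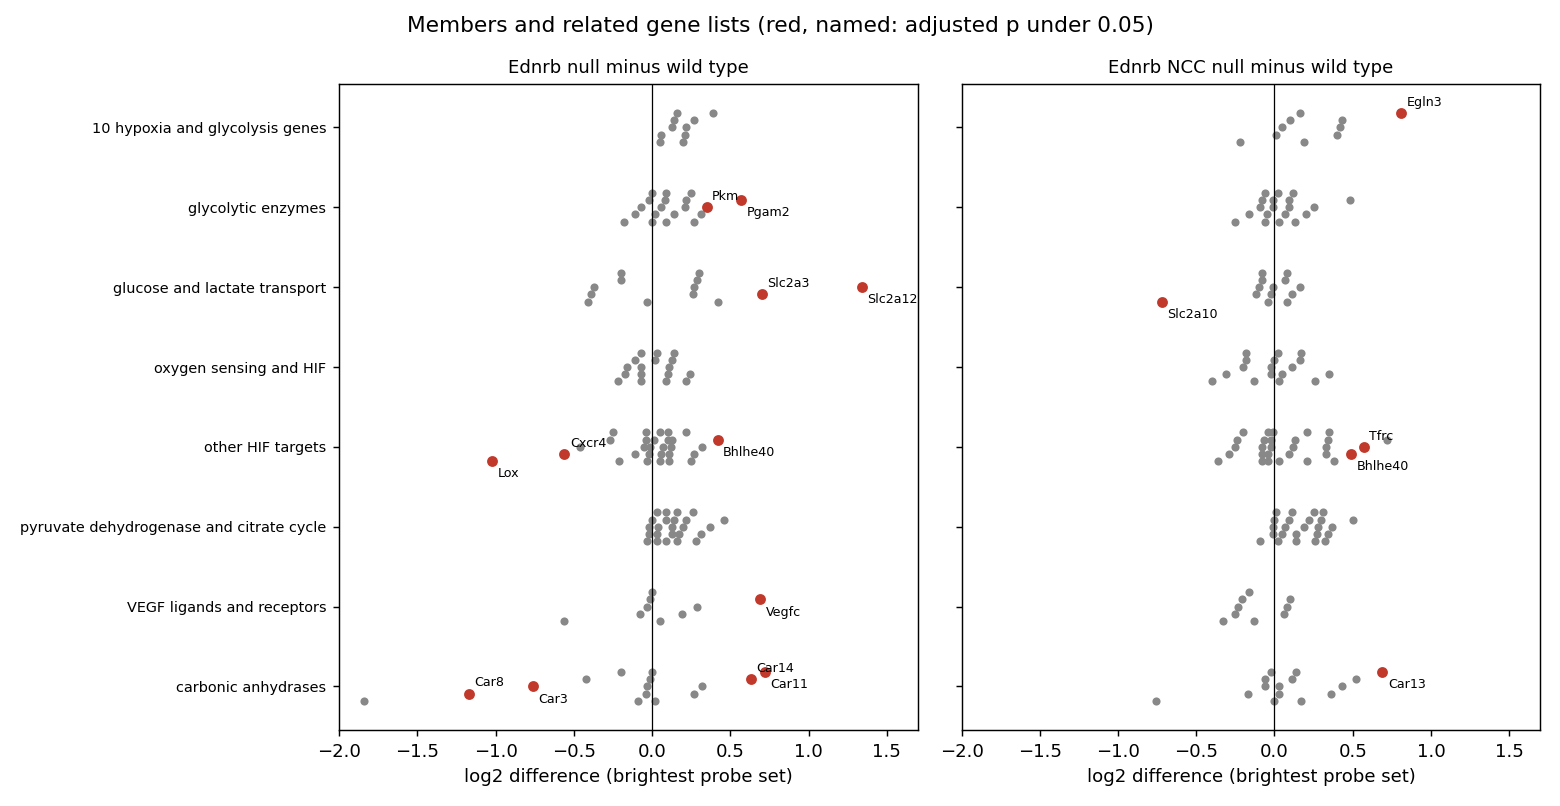
Log2 differences from wild type (horizontal axis) of each of the 10 genes and of each gene in 7 related lists (brightest probe set, n = 3 arrays a group), by mutant, with named red points for adjusted p under 0.05; vertical scatter within a list only separates the points. Slc2a12, at 1.34 in Ednrb null, lies farthest to the right, while the oxygen-sensing genes lie between -0.40 and 0.35.

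The genes whose profile over the 9 arrays was most like that of Egln3 1418649_at, by the root mean square difference of mean-centred log2 values, were 1700001L05Rik (0.0973), Gbp7 (0.112), Pnoc (0.119), Anxa3 (0.119) and Tst (0.12). All 5 were, like Egln3, highest in Ednrb NCC null, by 0.60 to 0.82 over wild type, which follows from choosing them by this likeness. No other member was among them.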

How the data were processed

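The deposited values are linear intensity per probe set, made by the authors with RMA per the submitters' processing notes, and ranged from 5.69 to 61637. The version of RMA and its probe set definitions are not stated there. Labelled RNA came from 150 ng per sample, per the labels' protocols. Intensities were put on the log2 scale with no pseudocount, 64 array controls were left out, and limma 3.58.1 in R 4.3.3 (lmFit, eBayes) was fitted to all 9 arrays, with Benjamini-Hochberg adjustment over 45037 probe sets. Of these, 34945 name 1 gene, 932 several and 9160 none in the platform annotation. The brightest probe set stands for a gene (18193 genes, 18032 of them found in the RefSeq table). Levels of different probe sets are not compared.

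The members and lists were chosen with earlier results of these data known. Named besides members are up to 4 called genes per pathway list and comparison (smallest p first), up to 3 markers per list, and 5 genes most like the member with the smallest p; Hif1a, Egln1 and Egln2 were chosen after their values were seen. Alternatives covered scaling, filters, probe set choice, the groups fitted, array weights, the Actb ratio and each array left out. The fit was tested on simulated data. The number of arrays limits the precision.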

Additional observations from a re-analysis of the deposited data

Results flagged for a closer look

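A pair of member probe sets differed between the mutants themselves, by the limma contrast of Ednrb null against Ednrb NCC null. Egln3 1418649_at had a difference of -0.59, with 3 of 3 Ednrb null arrays below 3 of 3 Ednrb NCC null arrays. The dim Pdk1 1434974_at had -1.79 (limma adjusted p 0.00643), again with no overlap, while the other 3 Pdk1 probe sets had -0.10 to 0.12. On adjusting for the Actb ratio both calls were lost (-0.65, limma adjusted p 0.163, and -1.78, limma adjusted p 0.176). That ratio was lower on every Ednrb null array than on all others, so it cannot be told apart from the genotype.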

How the results depend on the processing

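No paired analysis was possible because the labels give the groups no shared replicate numbers. The rise of Egln3 1418649_at in Ednrb NCC null stayed called in 19 of 19 alternatives (0.58 to 0.87, limma adjusted p 0.000952 to 0.0241), and its difference between mutants in 18 of 19. Member probe sets called in Ednrb null against wild type, 1 as reported, were 2 with arrays centred on their median or at adjusted p under 0.10, and 0 without the dimmest 40%, with the brightest probe set or the mean per gene, or with the Actb ratio as covariate (0 to 2 leaving out 1 array). In Ednrb NCC null against wild type, 2 as reported, they were 1 with quantile normalization, only the 2 groups compared, the brightest probe set, the mean, or the Actb ratio (1 to 3 leaving out 1 array). Between the mutants, 2 as reported, they were 1 without the dimmest 40% or with the brightest probe set and 0 with the Actb ratio (2 leaving out any 1 array). All probe sets called were 2265 (Ednrb null against wild type), 1611 (NCC null against wild type) and 1984 (between mutants). These became 917, 902 and 1187 with the brightest probe set, 982, 932 and 1216 with the mean, and 1330 to 2358, 716 to 1971 and 866 to 2061 leaving out 1 array. The Actb ratio gave 539 in Ednrb null and 283 between mutants, array weights gave 3709 between mutants, the 2 groups alone gave 1042 in NCC null, and adjusted p under 0.10 gave 2871 in NCC null and 3164 between mutants. Signs turned for small differences: Slc2a1 in NCC null (-0.04 with quantile normalization, -0.04 to 0.08 leaving out 1 array), Pdk1 by the mean of its probe sets (-0.05 in Ednrb null, and -0.46 between mutants, limma adjusted p 0.0333), and, with the Actb ratio, Egln3 1418648_at (0.23) and Aldoc (-0.07) in Ednrb null and Bnip3 between mutants (0.13). Leaving out 1 array, signs also turned for Pdk1 1435836_at in NCC null (-0.10 to 0.15), Pgk1 (0.00 to 0.10) and Vegfa (0.00 to 0.19) in Ednrb null, and, between mutants, Ldha (-0.08 to 0.02), Bnip3 (-0.08 to 0.08) and Pdk1 1423747_a_at (-0.18 to 0.07). The cause of these turns was not tested.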
